A study of Danio rerio with 2 samples.

Results

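Heat shock genes, 10 in all, were followed in single-cell RNA libraries of the regenerating zebrafish heart: hsp70.1, hsp70.2, hsp70.3, hsp70l, hspa8, hspa5, hsp90aa1.2, hsp90ab1, hspb1 and dnajb1b. They were found by symbol in the gene list of the count matrices and are 10 of its 32057 genes. All 10 had UMIs (unique molecular identifiers, each standing for 1 captured RNA molecule) in both libraries. The 4 inducible hsp70 genes were set against 3 constitutive genes, hspa8, hspa5 and hsp90ab1.

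Heat shock proteins are chaperones that bind unfolded or aggregating proteins. The transcription factor Hsf1 switches on the inducible hsp70 genes, which are nearly silent in unstressed cells, within minutes of heat, oxidative or proteotoxic stress, whereas Hspa8 (Hsc70), the cytosolic Hsp90 beta encoded by hsp90ab1 and the endoplasmic reticulum Hsp70 encoded by hspa5 (BiP) are made in nearly every cell. J-proteins such as Dnajb1 hand clients to Hsp70, and small heat shock proteins such as Hspb1 hold unfolded proteins without using ATP and are abundant in striated muscle.

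The mutant fish, cd74a;cd74b double mutants, carried mutations in both cd74a and cd74b, the zebrafish genes for the invariant chain of MHC class II, and the comparison was with wild-type fish. The alleles, cd74a bns454 and cd74b bns456, were made with CRISPR-Cas9, and all fish were of the AB strain. The fish were adults, and the age of those in each pool is not given separately in the sources used here. Ventricles were frozen locally (cryoinjury), and the border zone and injured tissue was taken at 120 hours post-cryoinjury. Each genotype gave 1 library, for which the tissue of 4 ventricles (2 female fish, 2 male) was pooled, dissociated with enzymes and cleared of dead cells. With 1 library per genotype there is no replicate: no test between genotypes was possible, every interval below is a 95% interval for counting error only, and genotype, pool of fish and library preparation cannot be told apart.

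The mutant matrix held 15142 barcodes and 22991961 UMIs, and the wild-type matrix 4607 barcodes and 7395919 UMIs. Barcodes with more than 300 genes and at most 70% mitochondrial UMIs were kept as cells, 7174 mutant and 3589 wild-type. Of these, 7 barcodes occurred in both libraries. The kept cells had a median of 1049 non-mitochondrial UMIs in the mutant library and 1107 in the wild-type library. Counted over all genes the medians were 1641 UMIs in mutant and 1404 in wild-type cells. The mitochondrial share, in the filter and below, counts UMIs of the 13 mitochondrial protein genes alone. Non-mitochondrial totals leave out all 37 mitochondrial genes, so the share understates the UMIs left out. The median mitochondrial share was 22.3% in mutant and 14.99% in wild-type cells, and ribosomal protein genes took 46.2% of mutant and 38.3% of wild-type non-mitochondrial UMIs. Levels are given as CPM, UMIs per 1000000 non-mitochondrial UMIs. The cd74a transcript was at 86.9 CPM in mutant and 1170 in wild-type cells, and cd74b at 49.8 in mutant and 496 in wild-type cells.

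Cells were clustered without the heat shock genes, and 8 populations had at least 50 cells in each library. There were 1399 mutant and 948 wild-type macrophage-like cells, 573 mutant and 333 wild-type endocardial-like cells, and 387 mutant and 89 wild-type coronary endothelial-like cells. Fibroblast-like cells were 1804 mutant and 514 wild-type, epicardial or epithelial-like cells were 99 mutant and 261 wild-type, and cardiomyocyte-like cells 77 mutant and 432 wild-type. Cluster 7 (568 mutant and 260 wild-type cells), led by defbl1, apoda.1, bmp6, edn2 and vwf, and cluster 1 (328 mutant and 698 wild-type cells), led by angptl5 and tpm4b, carried no name. The libraries filled some populations from different clusters. Most mutant macrophage-like cells were in cluster 3 and most wild-type ones in cluster 4, mutant fibroblast-like cells were mostly in cluster 11 and wild-type ones in cluster 2, and mutant endocardial-like cells were mostly in cluster 12 and wild-type ones in cluster 14. Values of those clusters are given where a result turns on them. Cluster 10, with 1824 mutant and 39 wild-type cells and the highest mitochondrial share, counted among all kept cells and in none of the 8 populations. The same was done with cluster 9, which carried epicardial or epithelial markers but held 111 mutant and no wild-type cells.

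The inducible hsp70 genes stood lower in mutant than in wild-type cells, more so than the constitutive genes. Summed over hsp70.1, hsp70.2, hsp70.3 and hsp70l, the level was 1066 CPM in mutant cells and 3122 in wild-type cells, a log2 ratio of -1.55 (95% interval -1.59 to -1.52). The constitutive sum was 2370 in mutant and 3929 in wild-type cells, a log2 ratio of -0.73 (-0.76 to -0.70). The median gene with at least 50 UMIs was itself lower in the mutant library, at -0.47. Set against that shift, the inducible sum stood at -1.08. Without cluster 10 the unshifted value was -1.52.

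Among the inducible genes hsp70.3 was the most abundant, with 472 CPM in mutant and 1273 in wild-type cells (log2 ratio -1.43). The level of hsp70.2 was 218 in mutant and 726 in wild-type cells (-1.73). That of hsp70l, the gene whose promoter drives most zebrafish heat shock transgenes, was 213 in mutant and 657 in wild-type cells (-1.63). The fourth, hsp70.1, was at 163 in mutant and 465 in wild-type cells (-1.51). The upper bounds of the 4 counting intervals lay between -1.66 and -1.38.

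Of the 10 members, 6 were at least 2-fold lower in mutant cells, the inducible genes together with hsp90aa1.2 and dnajb1b. Among all 8415 genes with at least 50 UMIs, 9.95% were at least 2-fold lower and 1.78% at least 2-fold higher, and no member was among the higher ones. Relative to the median gene, 3 of these 6 stayed past 2-fold, hsp70.1, hsp70.2 and hsp70l, while hsp70.3 stood at -0.96, hsp90aa1.2 at -0.79 and dnajb1b at -0.57. The other 4 members were lower by less: hspa8, hspa5, hsp90ab1 and hspb1.

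**Figure D1:**
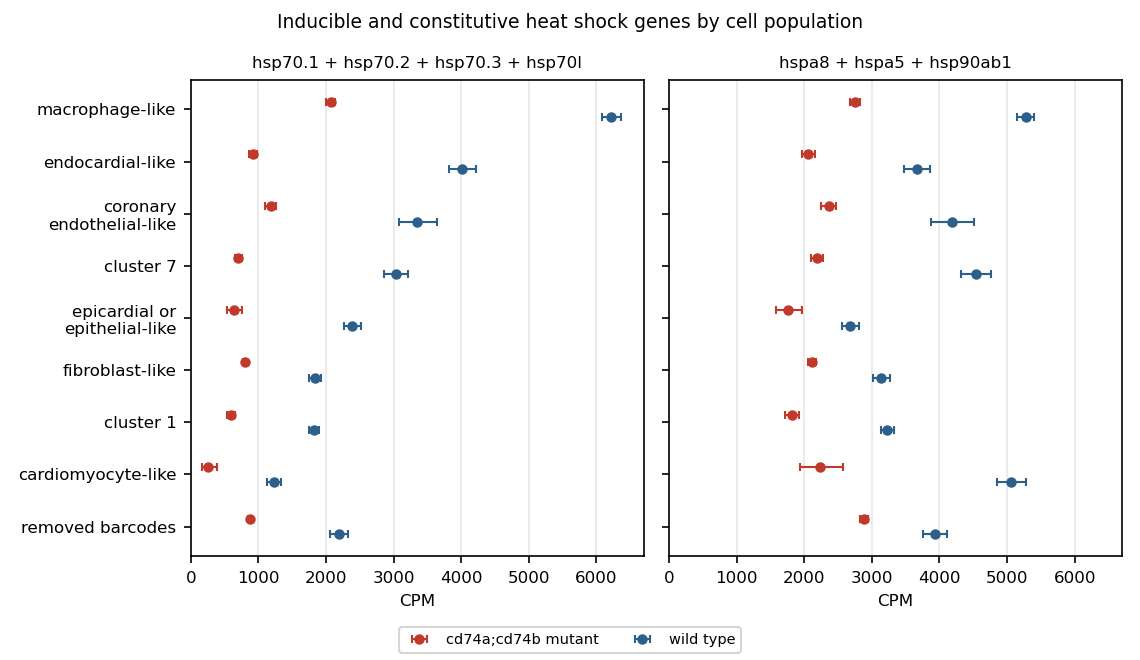
Summed levels of the inducible hsp70 genes (left) and of hspa8, hspa5 and hsp90ab1 (right) in CPM, by population, mutant above wild type in each row; bars are 95% counting intervals. The mutant points lie left of the wild-type points in every row, and the wild-type macrophage-like cells reach 6220 in the left panel.

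Every population showed the same direction for the inducible sum. In macrophage-like cells it was 2068 CPM in mutant and 6220 in wild-type cells (log2 ratio -1.59), the highest level of the 8 populations in both libraries. Both large macrophage clusters gave a similar difference, -1.87 in cluster 3, with 2109 in mutant and 7736 in wild-type cells, and -1.90 in cluster 4, with 1554 in mutant and 5795 in wild-type cells. Of the members, 8 were at least 2-fold lower in macrophage-like cells, against 17.5% of all genes with at least 50 UMIs there. Within the clusters fewer were, since hspa5 gave -0.80 in cluster 3 and -0.98 in cluster 4. For dnajb1b the values were -1.23 in cluster 3 and -0.90 in cluster 4.

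Endocardial-like and coronary endothelial-like cells came next in level in both libraries. Endocardial-like cells had 919 inducible hsp70 CPM in mutant and 4017 in wild-type cells (-2.13), and cluster 14 alone gave -2.30. There 6 members and 17.2% of all genes were at least 2-fold lower. Coronary endothelial-like cells had 1180 in mutant and 3346 in wild-type cells (-1.504), with 5 members and 20.9% of all genes at least 2-fold lower. Cluster 7 had 704 in mutant and 3036 in wild-type cells (-2.11), with 8 members and 24.1% of all genes.

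With the clusters used, fibroblast-like cells showed the smallest difference of the 8 populations, but that rank depended on how cells were classed. With classes taken from marker UMIs per cell the inducible log2 ratio was -1.33 in fibroblast-like, -1.16 in endocardial-like and -0.75 in cardiomyocyte-like cells, and with coarser clusters (Leiden resolution 0.5) it was -1.95 in fibroblast-like cells. The fibroblast-like inducible sum was 804 in mutant and 1831 in wild-type cells (-1.19), and in cluster 2 alone it was 1036 in mutant and 1791 in wild-type cells (-0.79). Here 4 members were at least 2-fold lower, against 8.36% of all genes, but within cluster 2 hsp70l alone of the 10 members was (-1.39). Cluster 1 had 590 in mutant and 1822 in wild-type cells (-1.63), with 5 members and 19.7% of all genes at least 2-fold lower. Epicardial or epithelial-like cells had 634 in mutant and 2386 in wild-type cells (-1.91), with 5 members and 20.7% of all genes. With cluster 9 added to the mutant cells the sum was 542 in mutant and 2386 in wild-type cells (-2.14).

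Cardiomyocyte-like cells held the least inducible hsp70 in both libraries. The sum was 254 CPM in mutant cells, from 22 UMIs, and 1229 in wild-type cells, from 555 UMIs (-2.28, interval -2.96 to -1.66). No UMI of hsp70.1 was found in the 77 mutant cells, against 71 UMIs in the 432 wild-type cells, which puts its mutant level at least 4.54-fold lower when 3 counts are taken as the limit for the mutant library. The exact 95% interval of its log2 ratio, a wider limit, reached up to -1.85. In this population 7 members and 23.3% of all genes were at least 2-fold lower. The count turned on the merging of clusters 15 and 16. Within them dnajb1b gave -0.92 in cluster 15 and -0.54 in cluster 16, with intervals that included 0, and hspa8 was past 2-fold in neither. In cluster 15 hsp90aa1.2, not past 2-fold in the merged cells, gave -1.16 with an interval that included 0.

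The inducible genes were not lower by the same amount in each population. Apart from hsp70.2 in cardiomyocyte-like cells, which rested on 3 mutant UMIs (-2.81), the largest differences were those of hsp70l, with 172 CPM in mutant and 1036 in wild-type endocardial-like cells (-2.59) and 60.4 in mutant and 345 in wild-type cells of cluster 1 (-2.51). In fibroblast-like cells hsp70l was at 126 in mutant and 291 in wild-type cells (-1.20). Levels of hsp70.2, hsp70.3 and hsp70l were at least 2-fold lower in 8 of 8 populations. Within fibroblast cluster 2 this held for hsp70l (-1.39) but not for hsp70.2, at 217 in mutant and 425 in wild-type cells (-0.97), or hsp70.3, at 585 in mutant and 875 in wild-type cells (-0.58), and hsp70.1 gave -0.73 there. For hsp70.1 the exception was the coronary endothelial-like cells, with 156 in mutant and 306 in wild-type cells (-0.97, interval -1.46 to -0.47).

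The order of populations was alike at its ends and differed in between. Macrophage-like cells stood apart at the top in both libraries, and cardiomyocyte-like cells at the bottom, with counting intervals that did not reach the next population. Among mutant cells, the intervals of cluster 7 and the epicardial or epithelial-like cells overlapped, as did those of the epicardial or epithelial-like cells and cluster 1. Among wild-type cells, the fibroblast-like cells and cluster 1 overlapped, and coronary endothelial-like cells overlapped with cluster 7. From the highest to the lowest population the inducible sum spanned 8.14-fold in mutant and 5.06-fold in wild-type cells, while the constitutive sum spanned 1.56-fold in mutant and 1.97-fold in wild-type cells. The low end of the mutant inducible span rested on 22 UMIs. Among the constitutive genes hspa5 spanned 4.89-fold in mutant and 4.98-fold in wild-type cells. For hspa8 the span was 2.04-fold in mutant and 2.55-fold in wild type, and for hsp90ab1 1.85-fold and 1.69-fold.

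Single clusters gave the same direction as the merged populations. In all 11 clusters with at least 30 cells in each library the inducible log2 ratio was below 0, and in 10 of them it was at most -1, with a range of -2.66 to -0.79. The constitutive sum was also below 0 in all 11, but at most -1 in 1 cluster.

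**Figure D2:**
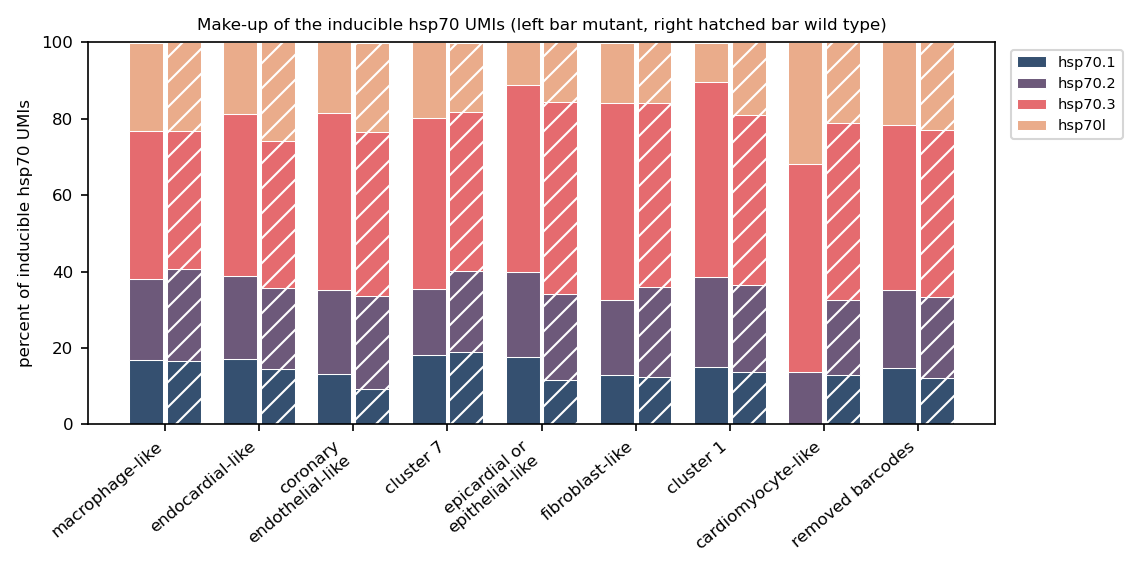
Share of the inducible hsp70 UMIs (percent, y axis) that came from each of the 4 genes, by population, with the mutant bar on the left and the hatched wild-type bar on the right. The hsp70.3 segment is the tallest of the 4 in every population and both libraries, and the mutant cardiomyocyte-like bar rests on 22 UMIs.

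In both libraries hsp70.3 made up more of the inducible signal than any other of the 4 genes. The share of hsp70.3 was the largest of the 4 in 8 of 8 populations, at 39.0% to 54.5% in mutant and 36.1% to 50.3% in wild-type cells. The share of hsp70l was 10.2% to 31.8% in mutant and 15.6% to 25.8% in wild-type cells. It was lower in mutant endocardial-like cells, at 18.7% (16.1% to 21.6%) in mutant and 25.8% (23.6% to 28.0%) in wild-type cells, and in cluster 1, at 10.2% in mutant and 18.9% in wild-type cells, with intervals that did not overlap. In the gene order of the NCBI RefSeq zebrafish annotation (GRCz12tu, another assembly than that of the counts) hsp70.1, hsp70.2 and hsp70.3 follow each other with no other protein-coding gene between them, while hsp70l lies elsewhere and hsp90aa1.2 adjoins its copy hsp90aa1.1. Reads from such close copies can match more than 1 gene, and how the counting treated them is not given in the sources used here, so the split among the 4 genes is uncertain, as is that between the hsp90aa1 copies. A count that discards such reads would also lower the sum.

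Both the share of cells with an inducible hsp70 UMI and the number of UMIs per such cell were lower in the mutant library. To remove depth, each cell was thinned to 500 non-mitochondrial UMIs, which left out 85 mutant and 68 wild-type cells. Of the thinned cells, 35.8% of mutant and 63.3% of wild-type cells carried at least 1 inducible UMI, and 57.9% of mutant and 79.9% of wild-type cells did so before thinning. Cells with at least 1 UMI carried 1.53 on average in the mutant and 2.73 in the wild-type library.

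Cells with many inducible UMIs were rarer in the mutant library. At least 5 inducible UMIs were found in 0.705% of mutant and 9.80% of wild-type cells, and among macrophage-like cells in 2.44% of mutant and 26.4% of wild-type cells. The variance of the count divided by its mean, which is 1 for counts that scatter by sampling alone, was 1.58 in mutant and 2.97 in wild-type cells. At equal relative spread this value grows with the mean, which was 0.548 in mutant and 1.73 in wild-type cells. The cells also pool populations, so these values do not show which library varied more between cells. No population of the 8 is known to lack hsp70 and could give a background share. The lowest shares of cells with at least 1 UMI were those of cardiomyocyte-like cells, 8.70% in mutant and 39.8% in wild-type cells, at median depths before thinning of 931 UMIs in mutant and 883 in wild-type cells.

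Barcodes that failed the cell filter showed the same direction. These barcodes were 7968 in the mutant library, with a median mitochondrial share of 52.2%, and 1018 in the wild-type library, with 30.9%. They held 873 inducible hsp70 CPM in the mutant and 2195 in the wild-type library, a log2 ratio of -1.33 (-1.43 to -1.23). In them 4 members were at least 2-fold lower, against 3.88% of all genes with at least 50 UMIs, and the median gene stood at -0.07. Constitutive genes differed less in these barcodes, with -0.45 for hspa8, -0.47 for hsp90ab1 and -0.22 (-0.51 to 0.07) for hspa5. Within each library, macrophage-like cells were above the removed barcodes by 1.24 log2 units in mutant and 1.503 in wild type. Coronary endothelial-like cells were above them by 0.43 in mutant and 0.61 in wild type. Endocardial-like cells were above them by 0.07 in mutant, where the interval (-0.04 to 0.19) included 0, and by 0.87 in wild type.

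The remaining populations were not above the removed barcodes in both libraries. Cluster 7 was at -0.31 in mutant and 0.47 in wild type relative to them, and the epicardial or epithelial-like cells at -0.46 in mutant and 0.12 in wild type. Fibroblast-like cells were at -0.12 in mutant and -0.26 in wild type, cluster 1 at -0.57 in mutant and -0.27 in wild type, and cardiomyocyte-like cells at -1.78 in mutant and -0.84 in wild type. In the last 3 of these the inducible level was no higher than in the barcodes that failed the filter.

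**Figure D3:**
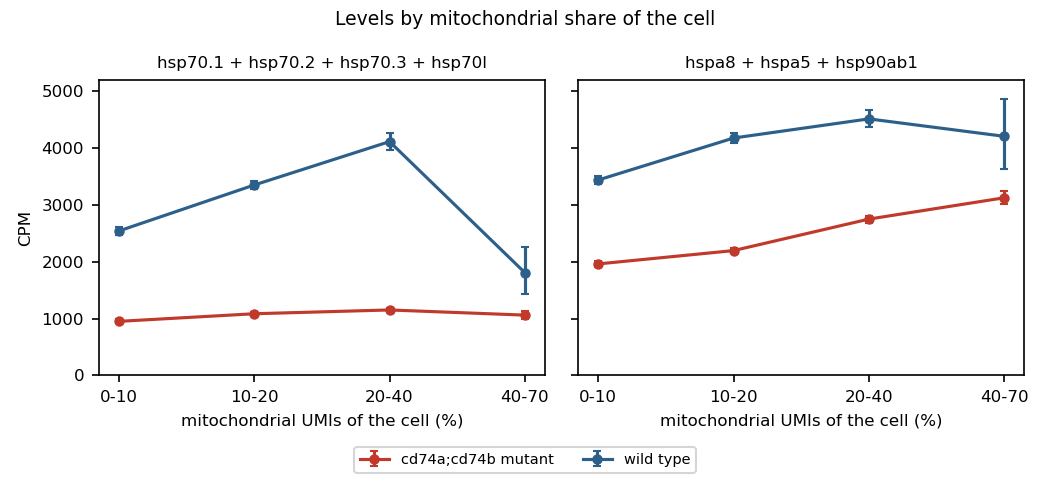
Level of the inducible (left) and constitutive (right) sums in CPM against the mitochondrial share of the cell in percent, for mutant and wild-type cells; bars are 95% counting intervals. Mutant cells stay near 1000 on the left in all bins, while wild-type cells range from 1810 to 4116, and the last wild-type bin holds 75 cells.

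The mitochondrial share of a cell, a sign of RNA quality, moved with the inducible level in wild-type cells up to a share of 40%. At 0% to 10% mitochondrial UMIs the inducible sum was 953 in mutant and 2544 in wild-type cells (log2 ratio -1.42). At 10% to 20% it was 1087 in mutant and 3352 in wild-type cells (-1.63), and at 20% to 40% it was 1153 in mutant and 4116 in wild-type cells (-1.84). At 40% to 70%, with 1181 mutant and 75 wild-type cells, it was 1062 in mutant and 1810 in wild-type cells (-0.77). The mutant sum was the lower one in each of the 4 bins, and the size of the difference varied between them. These bins pool cell types, whose mitochondrial shares differ. The wild-type median share was 9.99% in epicardial or epithelial-like, 17.4% in macrophage-like and 20.3% in cardiomyocyte-like cells. The part of cell composition in the trend was not tested. In the bin of 40% to 70%, hsp70.1 gave 0.40 (-0.86 to 2.05), from 5 wild-type UMIs. The hsp70l interval there included 0 (-0.50, -1.25 to 0.37).

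Among the other members, hsp90aa1.2 and dnajb1b were nearest to the inducible group. The level of hsp90aa1.2, one of the zebrafish genes for cytosolic Hsp90 alpha, was 379 CPM in mutant and 902 in wild-type cells (log2 ratio -1.25). It was highest in macrophage-like cells, at 883 in mutant and 2319 in wild-type cells (-1.39), and its largest difference was in cluster 7 (178 in mutant and 591 in wild-type cells, -1.73). The level of dnajb1b, a J-protein partner of Hsp70, was 355 in mutant and 726 in wild-type cells (-1.03), and it too was highest in macrophage-like cells, at 699 in mutant and 1406 in wild-type cells (-1.01).

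Cell by cell, these genes were higher where inducible hsp70 UMIs were found. In cells thinned to 500 UMIs, mutant cells with 0, with 1 to 2 and with 3 or more inducible UMIs held 13.5, 23.7 and 65.7 UMIs of hsp90aa1.2 per 100 cells, and wild-type cells 15.03, 42.0 and 104.8. The same mutant cells held 13.8, 24.6 and 49.2 UMIs of dnajb1b per 100 cells, and the wild-type cells 18.6, 37.0 and 74.0. The constitutive hspa8 differed far less across these bins, with 46.4, 46.6 and 57.3 UMIs per 100 mutant cells and 72.2, 72.8 and 94.5 per 100 wild-type cells. Over all kept cells, each bin held less of each of the 3 genes in mutant than in wild-type cells, although for hsp90aa1.2 the intervals overlapped in cells with 0 inducible UMIs. These bins pool cell types, and macrophage-like cells were 198 of the 309 mutant and 493 of the 851 wild-type cells with 3 or more inducible UMIs. Among fibroblast-like cells with 3 or more, dnajb1b was at 75.0 UMIs per 100 cells in mutant (24 cells) and 50.9 in wild type (53 cells), with overlapping intervals. Among endocardial-like ones, hsp90aa1.2 was at 36.8 (14.8 to 75.9) in mutant (19 cells) and 35.9 (24.7 to 50.4) in wild type (92 cells). Across the 3 bins, endocardial-like cells held 20.1, 29.0 and 47.4 hspb1 UMIs per 100 in mutant and 5.93, 8.20 and 43.5 in wild type. Fibroblast-like cells held 32.1, 38.1 and 37.5 in mutant and 42.6, 73.9 and 84.9 in wild type. Macrophage-like cells held 7.36, 8.75 and 12.6 in mutant and 6.78, 6.67 and 5.68 in wild type. Among these populations, the first and last hspb1 intervals were apart in wild-type endocardial-like and fibroblast-like cells alone. The endocardial-like value came from 40 UMIs in 14 of the 92 cells, a clumping that counting intervals leave out. Of wild-type fibroblast-like cells, 43.4% with 3 or more inducible UMIs and 35.4% with fewer carried hspb1. Over all wild-type cells hspb1 was at 45.4, 50.8 and 27.5, so the last bin was the lowest, with first and last intervals apart.

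**Figure D4:**
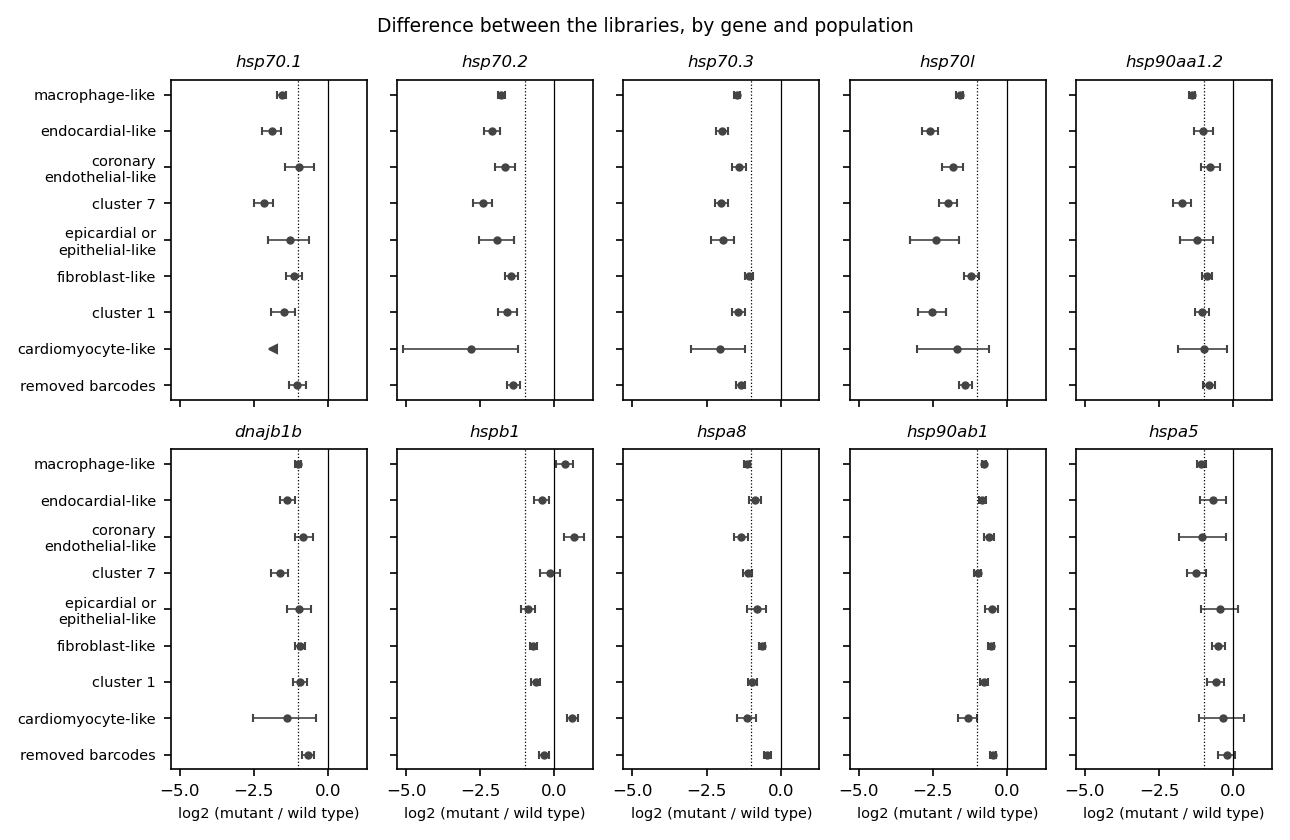
Log2 ratio of mutant over wild type for each of the 10 genes in the 8 populations and the removed barcodes, with 95% counting intervals; the solid line marks 0 and the dotted line a 2-fold lower level, and the triangle is an upper bound for a gene with no mutant UMI. The hsp70 panels lie mostly left of the dotted line, and hspb1 is the gene whose points fall on both sides of 0.

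The constitutive genes were lower in the mutant library by smaller amounts. The level of hspa8 was 804 CPM in mutant and 1476 in wild-type cells (-0.88), and 4 of the 8 populations, cardiomyocyte-like cells among them, were at least 2-fold lower. The level of hsp90ab1, the most abundant member, was 1364 in mutant and 2104 in wild-type cells (-0.63), with cardiomyocyte-like cells the single population past 2-fold (1027 in mutant and 2587 in wild-type cells, -1.33). Within the cardiomyocyte-like clusters hsp90ab1 gave -1.05 in cluster 16 and -0.75 in cluster 15, and hspa8 -0.87 in cluster 16 and -0.46 in cluster 15, so that the merged difference was larger than that of either cluster. The level of hspa5, the Hsp70 of the endoplasmic reticulum, was 201 in mutant and 348 in wild-type cells (-0.79). Their order of populations was not that of the inducible genes. The highest hspa8 level was in cardiomyocyte-like cells, at 1004 in mutant and 2208 in wild-type cells (-1.14), where inducible hsp70 was lowest, and the mutant interval there overlapped that of macrophage-like cells. By cluster, hspa8 was at 1809 in mutant and 2488 in wild-type cells of cluster 15 and at 569 in mutant and 1043 in wild-type cells of cluster 16. For hspa5 macrophage-like cells were highest, at 297 in mutant and 628 in wild-type cells (-1.08), and coronary endothelial-like cells lowest, at 60.7 in mutant and 126 in wild-type cells (-1.06). The hspa5 interval included 0 in epicardial or epithelial-like (-0.44, -1.08 to 0.16) and in cardiomyocyte-like cells (-0.37, -1.17 to 0.35), and relative to the median gene of the epicardial or epithelial-like cells (-0.52) it had the other sign there. Within the cardiomyocyte-like clusters hspa5 was above 0, at 0.44 (-0.52 to 1.27) in cluster 15 and 0.37 (-1.68 to 2.35) in cluster 16. Relative to the median gene, hspa8 stood at -0.41, hspa5 at -0.33 and hsp90ab1 at -0.16.

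A ratio of the inducible to the constitutive genes does not depend on the total used for scaling. For every 100 constitutive UMIs there were 45.0 inducible UMIs in mutant and 79.5 in wild-type cells, a log2 ratio of ratios of -0.82 (-0.86 to -0.78). It was -1.30 in endocardial-like cells, with 44.6 inducible UMIs per 100 in mutant and 109 in wild-type cells. It was -0.65 in macrophage-like cells, with 75.3 in mutant and 118 in wild-type cells.

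The ratio of ratios was below 0 in each of the 8 populations, with counting intervals that did not reach 0. It was -1.31 in epicardial or epithelial-like cells, -1.10 in cardiomyocyte-like cells, -1.06 in cluster 7, -0.80 in cluster 1, -0.62 in fibroblast-like and -0.68 in coronary endothelial-like cells. The removed barcodes gave -0.89. Within single clusters the inducible and constitutive log2 ratios lay apart by other amounts than in the merged populations. They were -0.79 and -0.54 in fibroblast cluster 2, and -2.30 and -0.62 in endocardial cluster 14. In macrophage cluster 3 they were -1.87 and -0.90, and in cluster 4 -1.90 and -0.78. The sizes and their order thus depended on how clusters were merged. By mitochondrial share the ratio of ratios was -0.61 at 0% to 10%, -0.70 at 10% to 20% and -1.12 at 20% to 40%. At 40% to 70% it was -0.34, with an interval that included 0 (-0.73 to 0.05). With classes from marker UMIs the cardiomyocyte-like value was 0.054, so its sign there depended on how the cells were classed.

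Across populations the small heat shock gene hspb1 behaved unlike the other 9, with log2 ratios on both sides of 0. By single cluster this was not so: hspb1 and hspa5 were each below 0 in 8 of 11 clusters. The hspa5 ratio was above 0 in clusters 10 (0.15), 15 (0.44) and 16 (0.37), with intervals that included 0. Over all cells hspb1 was at 533 CPM in mutant and 885 in wild-type cells (-0.73). By population it was highest in cardiomyocyte-like cells, at 3474 in mutant and 2282 in wild-type cells (0.61), and lowest in macrophage-like cells, at 161 in mutant and 127 in wild-type cells (0.34). The inducible sum had these ends the other way round, highest in macrophage-like and lowest in cardiomyocyte-like cells. Among the single genes, hsp70l in mutant cells was lowest in cluster 1 (60.4), with 80.8 in cardiomyocyte-like cells. Within the macrophage clusters the hspb1 interval included 0, with 163 in mutant and 146 in wild-type cells of cluster 3 (0.16, -0.34 to 0.70) and -0.02 in cluster 4.

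The sign of its difference varied between populations. It was higher in mutant coronary endothelial-like cells, at 822 in mutant and 523 in wild-type cells (0.65), and lower in the fibroblast-like (-0.71), epicardial or epithelial-like (-0.88), cluster 1 (-0.63) and endocardial-like cells (-0.43). With cluster 9, where hspb1 was at 151, the epicardial or epithelial-like value was -1.54. The median gene of endocardial-like cells (-0.37) and that of cluster 1 (-0.54) lay inside the hspb1 intervals there. In these populations hspb1 was thus not set apart from the general shift. In the endocardial-like cells the sign turned with the cluster: cluster 14 alone had 763 in mutant and 493 in wild-type cells (0.63). The cardiomyocyte-like difference was likewise absent within its clusters, with 4606 in mutant and 4617 in wild-type cells of cluster 16 (0.00) and 1381 in mutant and 1722 in wild-type cells of cluster 15 (-0.32, interval -0.80 to 0.13). Cluster 16 made up 35 of the 77 mutant and 64 of the 432 wild-type cardiomyocyte-like cells.

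**Figure D5:**
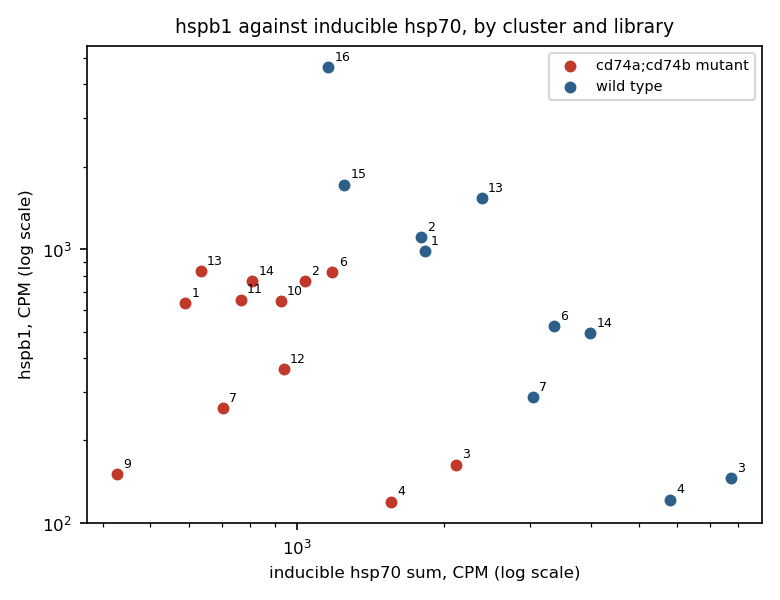
Level of hspb1 against the inducible hsp70 sum, both in CPM on log axes, for the clusters with at least 50 cells in a library; numbers name clusters. Clusters 3 and 4, the macrophage-like ones, lie at the lower right of each library. Cluster 16, cardiomyocyte-like, lies at the top and had at least 50 cells in the wild-type library alone.

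Over the 22 combinations of cluster and library with at least 50 cells, the Pearson correlation of log2 levels with the inducible sum was 0.88 for dnajb1b, 0.88 for hsp90aa1.2, 0.78 for hsp90ab1, 0.68 for hspa8, 0.61 for hspa5 and -0.27 for hspb1. These points share library and depth, and are a description. Within a library, over the 12 mutant and the 10 wild-type clusters, some were weaker. The correlation was 0.37 in mutant and 0.23 in wild type for hspa8, and 0.58 in mutant and 0.56 in wild type for hsp90ab1. For hspb1 it was -0.26 in mutant and -0.93 in wild type. The libraries cannot be compared in this, because cardiomyocyte-like clusters 15 and 16 counted among the wild-type clusters alone. Clusters 9, 10, 11 and 12 counted among the mutant clusters alone. These correlations compare clusters, not cells of the same population. Cell by cell, hspb1 was higher with 3 or more inducible UMIs in wild-type endocardial-like and fibroblast-like cells, but not in wild-type macrophage-like cells. Pooled over all wild-type cells, hspb1 was lower with 3 or more inducible UMIs. Outside the members, the 5 genes most like the inducible sum among 1966 genes were hnrnpa0l (0.90), eif3s6ip (0.90), UBB (0.88), ubb (0.86) and eif3ea (0.85). Within a library most of these values were weaker. For hnrnpa0l it was 0.70 in mutant and 0.90 in wild type, and for eif3s6ip 0.77 in mutant and 0.78 in wild type. UBB gave 0.81 in mutant and 0.69 in wild type, ubb 0.68 and 0.70, and eif3ea 0.63 and 0.74. Both UBB and ubb carry the name of a polyubiquitin gene, eif3ea encodes a subunit of the translation initiation factor eIF3, and hnrnpa0l an RNA-binding protein.

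Other chaperone genes differed less than the inducible hsp70 genes. Of 46 genes for cytosolic chaperones and co-chaperones in the matrices, 35 had at least 50 UMIs. Of the 35, 4 were at least 2-fold lower in mutant cells, against 9.95% of all genes, and none higher. The median log2 ratio of the 35 was -0.65, against -0.47 for all genes. Within that list hspa4a, an Hsp70 nucleotide exchange factor, was at 42.8 in mutant and 95.8 in wild-type cells (-1.16), and the immunophilin gene fkbp5 at 219 in mutant and 268 in wild-type cells (-0.29). The chaperonin subunit gene cct4 gave -0.70 and fkbp4 -0.07. By population, 5 of 11 genes of this list were at least 2-fold lower in endocardial-like cells, against 17.2% of all genes there. The count was 4 of 9 in coronary endothelial-like (20.9%), 8 of 23 in macrophage-like (17.5%) and 8 of 18 in cluster 1 cells (19.7%). It was 3 of 7 in epicardial or epithelial-like (20.7%) and 3 of 11 in cardiomyocyte-like cells (23.3%). Cluster 7, with 2 of 12 (24.1%), and fibroblast-like cells, with 1 of 23 (8.36%), were below the share of all genes.

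Over all cells, small heat shock genes besides hspb1 gave a median of -0.61 over 6 measured genes, with none past 2-fold. Among them were hspb11 (-0.54), hspb8 (-0.91), hspb7 (-0.97) and hspb6 (-0.54). The lower level did not hold within fibroblast-like cells, where the median was 0.24 and 1 of 3 genes was below 0. In cardiomyocyte-like cells all 4 genes were below 0, with a median of -0.21 against -0.34 for all genes there. The remaining populations had 1 or 2 measured genes each, all below 0. The part of cell composition in the value over all cells was not tested. Mitochondrial chaperones had a median of -0.48 over 6 genes in all cells, with none past 2-fold. In that group the chaperonin hspd1 gave -0.81 and its partner hspe1 -0.14. Relative to the median gene, hspe1, fkbp4 and fkbp5 had the other sign.

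Endoplasmic reticulum chaperones and stress genes had a median of -0.76 over 26 genes, against -0.47 for all genes. Of the 26, 3 were at least 2-fold lower, against 9.95% of all genes. The collagen chaperone gene serpinh1b was at 86.0 in mutant and 180 in wild-type cells (-1.07), and the disulfide isomerase gene pdia3 gave -0.99. A second disulfide isomerase gene, p4hb, was the other way round, at 359 in mutant and 217 in wild-type cells (0.73). By population, 6 of 9 genes of this list were at least 2-fold lower in coronary endothelial-like cells (median -1.09), against 20.9% of all genes there. The count was 9 of 17 in cluster 7 (against 24.1%), 9 of 19 in macrophage-like cells (17.5%) and 4 of 11 in cardiomyocyte-like cells (23.3%). It was 5 of 19 in cluster 1 (19.7%). It was 2 of 14 in endocardial-like (17.2%), 2 of 13 in epicardial or epithelial-like (20.7%) and 2 of 23 in fibroblast-like cells (8.36%). The endocardial-like, epicardial or epithelial-like and fibroblast-like counts were thus near or below the share of all genes.

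Immediate early genes, which are induced by many kinds of stimulus and by tissue dissociation, were also lower in the mutant library. Over all cells 7 of 27 measured genes were at least 2-fold lower, with a median of -0.69, against 9.95% of all genes. The count was 15 of 24 in endocardial-like cells (median -1.06, against 17.2% of all genes) and 17 of 22 in cluster 7 (median -1.34, against 24.1%). In macrophage-like cells, where inducible hsp70 was highest, it was 5 of 24 (median -0.67, against 17.5%), near the share of all genes. The count was 10 of 19 in cardiomyocyte-like (23.3%), 9 of 22 in epicardial or epithelial-like (20.7%) and 7 of 25 in fibroblast-like cells (8.36%). It was 7 of 24 in coronary endothelial-like cells (20.9%) and 7 of 24 in cluster 1 (19.7%). Over all cells, junbb was at 145 in mutant and 358 in wild-type cells (-1.30) and fosab at 595 in mutant and 1085 in wild-type cells (-0.87), while mcl1a gave -0.69 and klf2b 0.20. Their part in the difference of the heat shock genes was not tested.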

How the data were processed

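Border zone and injured ventricle tissue of 2 zebrafish pools, 1 per genotype, was profiled with Chromium 3' v3.1 libraries. The submitters' processing notes name STARsolo, Scanpy and the danRer11 build. The annotation release and the treatment of reads that match several genes are not given in the sources used here. The deposited matrices hold UMI counts per gene and barcode, made by the authors, with no normalization.

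Barcodes with more than 300 genes and at most 70% mitochondrial UMIs, counted over the 13 mitochondrial protein genes, were kept. Levels are UMIs per 1000000 non-mitochondrial UMIs (CPM), with exact Poisson intervals. Ratios of 2 counts have exact conditional intervals, ratios of ratios a log-normal interval and shares Clopper-Pearson intervals. All are at 95%. The intervals of levels and ratios leave out scatter between cells beyond sampling. The variance over mean of inducible UMIs was 1.58 in mutant and 2.97 in wild-type cells. Cells were clustered with Scanpy 1.11.5 (2000 variable genes without the members and listed genes, 50 components, 15 neighbours, Leiden resolution 1), and the 16 clusters were named from marker lists. The naming thresholds were set after seeing the data. No doublet caller was run and doublets were left in.

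The genes named are the 10 members, the 2 most abundant and the highest and lowest genes (with at least 200 UMIs) of each list, and the 5 genes most like the inducible sum. A gene with at least 50 UMIs was counted as lower or higher at 2-fold. The members and lists were chosen with earlier results of these data known. Alternatives were scaling by the median gene ratio, ribosomal genes left out of the total, the mean over cells, stricter cell filters, another clustering and classes from marker UMIs. The alternatives without cluster 10, with clusters weighted equally and with cluster 9 were added after seeing the data. Sequences of the members were not analysed here.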

Additional observations from a re-analysis of the deposited data

Results flagged for a closer look

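The hspb1 gene differed in direction between populations, as log2 ratios of mutant over wild type whose counting intervals did not include 0. It was higher in mutant coronary endothelial-like (0.65), macrophage-like (0.34) and cardiomyocyte-like cells (0.61). It was lower in mutant endocardial-like (-0.43), fibroblast-like (-0.71), cluster 1 (-0.63) and epicardial or epithelial-like cells (-0.88). Within single clusters several of these values were smaller or turned: 0.16 (-0.34 to 0.70) and -0.02 in macrophage clusters 3 and 4, 0.00 and -0.32 in cardiomyocyte clusters 16 and 15, and 0.63 (0.27 to 0.99) in endocardial cluster 14. With cluster 9 the epicardial or epithelial-like value was -1.54. The median gene stood at -0.37 in endocardial-like cells and -0.54 in cluster 1, inside the hspb1 intervals there. It stood at -0.19 in fibroblast-like and -0.52 in epicardial or epithelial-like cells, above the hspb1 intervals there. In cluster 7 it stood at -0.52, below the hspb1 interval (-0.47 to 0.20). The difference between these populations was not tested, because each genotype has 1 library.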

How the results depend on the processing

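The inducible log2 ratio was below 0 under 63 of 63 alternatives (-2.39 to -0.75). Those of single members over all kept cells were below 0 under 70 of 70, although by population hspb1 was above 0 in 3 of 8. The ratio of ratios was below 0 under 42 of 43. The exception was cardiomyocyte-like cells when classes came from marker UMIs (0.054). Over all cells the inducible ratio was -1.08 scaled by the median gene ratio, -1.35 without ribosomal genes, -1.62 as a mean over cells, -1.5 in cells with more than 500 genes and -1.87 with clusters weighted equally, and the ratio of ratios was -0.95 as a mean over cells, -0.67 in cells with more than 500 genes, -0.75 at up to 30% mitochondrial UMIs, -0.71 without cluster 10 and -1.12 with clusters weighted equally. Scaled by the median gene ratio, the inducible ratio was -1.75 in endocardial-like, -1.08 in coronary endothelial-like, -1.59 in cluster 7, -1.0 in fibroblast-like, -1.12 in macrophage-like, -1.09 in cluster 1 and -1.39 in epicardial or epithelial-like cells. Without ribosomal genes it was -1.93 in endocardial-like, -1.27 in coronary endothelial-like, -1.85 in cluster 7, -1.09 in fibroblast-like, -1.34 in cluster 1 and -1.41 in macrophage-like cells. In cells with more than 500 genes it was -1.34 in coronary endothelial-like and -1.70 in macrophage-like cells. With classes from marker UMIs it was -1.16 in endocardial-like, -2.03 in coronary endothelial-like, -1.33 in fibroblast-like, -2.22 in epicardial or epithelial-like and -0.75 in cardiomyocyte-like cells, and at Leiden resolution 0.5 it was -1.95 in fibroblast-like cells. With cluster 9 the epicardial or epithelial-like inducible ratio was -2.14. The cause of these shifts was not tested. No paired analysis was possible because each genotype has 1 library and the labels carry no replicate numbers. Depth limits the mutant cardiomyocyte-like values most, which rest on 22 inducible UMIs.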
